A study of Homo sapiens with 12 samples.

Results

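A set of 10 genes that ERK signaling switches on as its own brakes and targets was followed in a human leukemia cell line treated with a FLT3 inhibitor, a topoisomerase II poison or both. They are the phosphatase genes DUSP4, DUSP5 and DUSP6, the Sprouty and SPRED genes SPRY2, SPRY4, SPRED1 and SPRED2, the transcription factor genes ETV4 and ETV5, and PHLDA1. They were taken by symbol from the 43876 genes of the table, and all 10 were found. MV4-11 is an acute myeloid leukemia line that carries FLT3-ITD, an internal tandem duplication that keeps the FLT3 receptor active, and the labels give its genotype as wild-type in every sample. The cells were kept for 24 h in DMSO, in 25 nM gilteritinib (Gilteritinib), in 20 nM mitoxantrone (Mito-Lipo) or in 20 nM mitoxantrone with 20 nM gilteritinib (Com). Each of the 4 conditions had 3 libraries, numbered 1 to 3, which makes 12. The sample labels call the second drug mitoxantrone and the paper calls it mitoxantrone-liposome, and the paper's short name is used here. All groups are the same cell line, and the sources used here do not say whether the 3 libraries of a condition came from separate cultures, so the p-values measure only the spread between these libraries. Gilteritinib was not given at the same dose alone and in Com.

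FLT3 signals through the RAS, RAF, MEK and ERK kinases as well as through STAT5 and PI3K. Active ERK turns on genes whose products then hold it back, and the level of their RNA is widely used as a readout of the pathway's output. DUSP proteins remove the activating phosphates from MAP kinases, Sprouty and SPRED proteins act upstream at the level of RAS and RAF, and ETV4 and ETV5 are ETS transcription factors that carry the signal to further genes. RNA levels say nothing directly about ERK phosphorylation, which was not measured in these libraries. In bulk RNA, fewer cells with a transcript and less of it per cell cannot be told apart.

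The promoters of 3 members are shown because they stand for the patterns described further on. PHLDA1 had the largest difference between libraries, SPRY4 was low and reached its highest values in the same libraries, and DUSP6 differed little. The windows are RefSeq promoters of 300 bases on GRCh38.p14, read along the minus strand, on which all 3 genes lie. They cover chr12:76031727-76032026 for PHLDA1, chr5:142324198-142324497 for SPRY4 and chr12:89352452-89352751 for DUSP6. By the GENCODE gene positions given further on, each window lies inside its gene, downstream of the outermost start. The RefSeq starts used here thus differ from those. Capitals mark GGAA, the core that ETS factors bind, on either strand (TTCC on the strand shown), and in SPRY4 also TGACG and GCGNGGGCG, the last being an EGR motif.
PHLDA1: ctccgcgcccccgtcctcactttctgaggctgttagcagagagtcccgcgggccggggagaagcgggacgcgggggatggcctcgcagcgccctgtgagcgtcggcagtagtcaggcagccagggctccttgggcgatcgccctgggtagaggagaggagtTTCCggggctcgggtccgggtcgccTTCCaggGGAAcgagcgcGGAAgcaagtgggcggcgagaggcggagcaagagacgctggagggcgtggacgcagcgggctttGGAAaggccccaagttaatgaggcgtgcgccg
SPRY4: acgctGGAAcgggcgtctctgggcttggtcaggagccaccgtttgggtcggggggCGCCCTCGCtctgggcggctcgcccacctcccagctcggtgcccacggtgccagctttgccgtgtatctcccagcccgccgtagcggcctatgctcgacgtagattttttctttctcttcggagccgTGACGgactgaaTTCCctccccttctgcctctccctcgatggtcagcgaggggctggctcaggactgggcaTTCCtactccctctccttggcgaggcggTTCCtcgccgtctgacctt
DUSP6: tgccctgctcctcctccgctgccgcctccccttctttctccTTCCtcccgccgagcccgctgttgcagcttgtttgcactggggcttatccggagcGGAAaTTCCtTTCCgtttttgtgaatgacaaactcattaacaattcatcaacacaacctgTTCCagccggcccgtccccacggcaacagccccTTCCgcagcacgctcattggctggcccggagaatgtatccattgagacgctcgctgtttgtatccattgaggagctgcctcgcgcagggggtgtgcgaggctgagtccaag

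GGAA or its complement occurs 5 times in the PHLDA1 window, 4 times in SPRY4 and 6 times in DUSP6. It is found in 95.5% of the 35116 RefSeq promoter windows of the same length, so its presence sets none of these apart. TGACG is in 24.6% of the windows and GCGNGGGCG in 9.43%, and SPRY4 holds each of them 1 time. None of the 3 windows holds TGANTCA (the AP-1 site, 7.71% of windows), TGACGTCA (the full cAMP response element, 1.85%), or TGAATGAA and TGAATGGA (among the forms bound by the repressor CIC, 1.65% and 1.03%). Other forms of the CIC site were not searched, so these windows may still hold one. Both strands were read for each motif, and TGACG also lies inside TGACGTCA. RefSeq windows were also held for SPRY2, SPRED1 and SPRED2.

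The deposited values are FPKM, fragment counts scaled to gene length and library total, in which levels of different genes can be compared. Differences were tested as log2(FPKM + 1) with limma for the 18574 genes that reached an FPKM of 1 in 3 libraries or more, and p-values were adjusted by Benjamini-Hochberg over all of them. Library totals, estimated from the smallest steps between low FPKM values, were about 31700000 to 41300000 fragments. Replicate 1 of every condition stood apart from replicates 2 and 3 along the first principal component, which held 41.9% of the variance. Of 12 markers of myeloid leukemia cells, 11 passed the filter on low values, while of the 4 T cell markers in the table none did, the highest standing at an FPKM of 0.0707. For other cell types, 1 of 5 B cell markers, 1 of 5 erythroid markers and 1 of 6 stromal and epithelial markers passed. FLT3 itself stayed between 132 and 171 in all 12 libraries, with 157 ± 16.5 (SD, n = 3) in DMSO, 156 ± 3.61 in Gilteritinib, 157 ± 22.3 in Mito-Lipo and 161 ± 6.79 in Com.

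Of the 10 genes, 8 passed the filter on low values. In DMSO, DUSP6 was the most abundant with an FPKM of 9.63 ± 3.32 (SD, n = 3), followed by PHLDA1 with 9.28 ± 3.88 and SPRED2 with 8.78 ± 2.43. These 3 did not differ from each other beyond their spread. ETV5 (5.56 ± 1.85) and SPRY2 (5.05 ± 1.37) came next and overlapped. ETV4 stood at 3.44 ± 0.683, DUSP5 at 2.70 ± 0.489 and DUSP4 at 2.06 ± 0.955. The ranges of neighbors in this order overlapped, but ETV4 was above DUSP5 and DUSP5 above DUSP4 in each DMSO library. SPRY4 was at 0.330 ± 0.192 and was above 1 in only 2 libraries, both of Mito-Lipo. SPRED1 (ENSG00000166068, chromosome 15, 38252326 to 38357249, plus strand) was listed at 0 in 11 libraries and at 0.0034 in Mito-Lipo replicate 3, about 1 fragment at the estimated depth, while its relative SPRED2 was expressed in every library. Neither SPRY4 nor SPRED1 passed the filter.

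**Figure D1:**
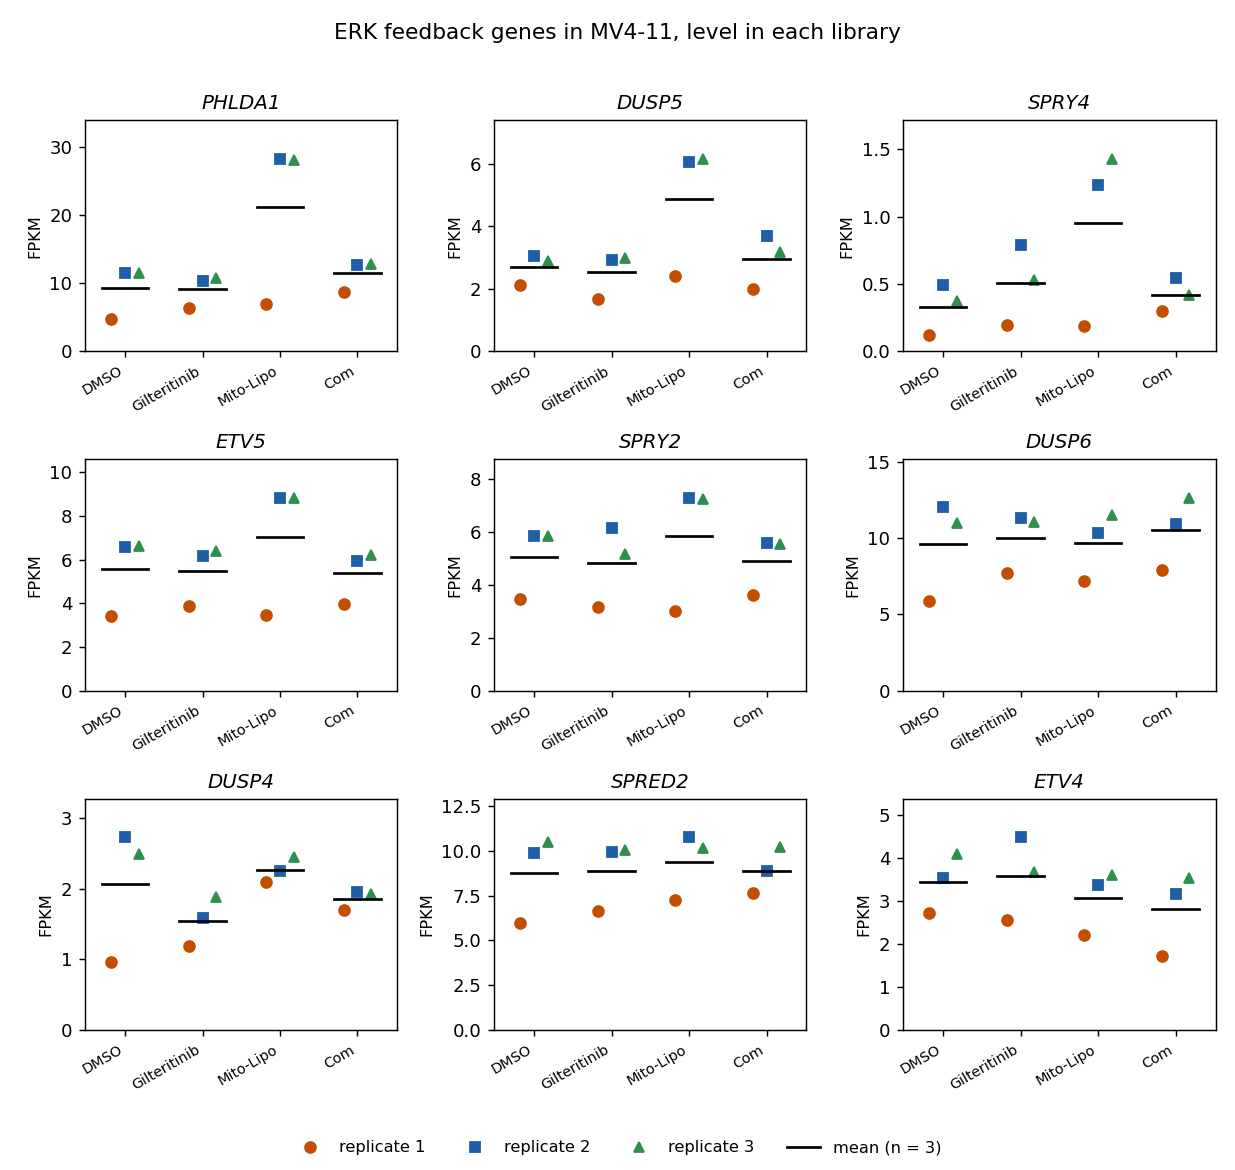
FPKM of 9 ERK feedback genes in each of the 12 libraries (vertical axes, linear from 0), by condition, with a symbol for each replicate number and a line for the mean of 3. PHLDA1 in Mito-Lipo stands at 6.99 in replicate 1 and at 28.3 and 28.1 in replicates 2 and 3, against 8.72 to 12.9 in Com. Replicate 1 is the lowest library of each condition for all 9 genes.

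The first comparison asks whether the FLT3 inhibitor alone lowered these genes at 24 h. No such difference was detectable for any of them. None of the 8 genes differed between Gilteritinib and DMSO at an adjusted p under 0.05 (0% of the genes tested were called), and none did at an unadjusted p under 0.05, a threshold that 1.86% of all genes tested passed. Of the 8, 5 lay above 0, and the median log2 difference was 0.0133 against -0.0254 for all genes tested.

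DUSP6 (ENSG00000139318, chromosome 12, 89347232 to 89353271, minus strand) encodes the cytoplasmic phosphatase that acts on ERK. Its FPKM was 5.84, 12.1 and 10.97 in DMSO replicates 1 to 3 and 7.69, 11.3 and 11.0 in Gilteritinib. The ranges overlapped, and the ratios of Gilteritinib to DMSO at numbers 2 and 3 were 0.940 and 1.01. The log2 difference was 0.09 with a standard error of 0.265 (95% interval -0.495 to 0.674, adjusted p = 1 from limma).

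DUSP4 (ENSG00000120875, chromosome 8, 29333064 to 29350668, minus strand) encodes a nuclear phosphatase of ERK and other MAP kinases. It stood at 0.969, 2.73 and 2.49 in DMSO and at 1.19, 1.58 and 1.88 in Gilteritinib. At numbers 2 and 3 Gilteritinib was lower than DMSO, by ratios of 0.579 and 0.755, and at number 1 it was higher (1.23). The log2 difference of all 3 was -0.22 with a standard error of 0.213 (adjusted p = 1 from limma), the lowest of the 8 members. In replicates 2 and 3 alone, a selection made after the values were seen, it was -0.40 (standard error 0.101, adjusted p = 0.204 from limma).

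DUSP5 (ENSG00000138166, chromosome 10, 110497838 to 110511544, plus strand) encodes a nuclear ERK phosphatase. Its levels were 2.14, 3.06 and 2.89 in DMSO and 1.67, 2.94 and 2.98 in Gilteritinib. The groups overlapped, with a log2 difference of -0.08 and a standard error of 0.292 (adjusted p = 1 from limma).

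SPRY2 (ENSG00000136158, chromosome 13, 80335976 to 80340951, minus strand), a Sprouty gene, stood at 3.47, 5.84 and 5.83 in DMSO and at 3.18, 6.14 and 5.17 in Gilteritinib. SPRED2 (ENSG00000198369, chromosome 2, 65310851 to 65432637, minus strand), whose protein helps to bring the RAS brake neurofibromin to the membrane, stood at 5.999, 9.88 and 10.5 in DMSO and at 6.64, 9.92 and 10.03 in Gilteritinib. Both pairs of groups overlapped. The log2 differences were -0.06 (standard error 0.309) for SPRY2 and 0.03 (0.219) for SPRED2, and limma gave both an adjusted p of 1. SPRY4 (ENSG00000187678, chromosome 5, 142310427 to 142326455, minus strand) was not tested. Its FPKM was 0.119, 0.496 and 0.374 in DMSO and 0.199, 0.787 and 0.533 in Gilteritinib, which was the higher at each of the 3 numbers.

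ETV4 (ENSG00000175832, chromosome 17, 43527844 to 43579620, minus strand) stood at 2.72, 3.53 and 4.08 in DMSO and at 2.56, 4.48 and 3.68 in Gilteritinib. ETV5 (ENSG00000244405, chromosome 3, 186046308 to 186110318, minus strand) stood at 3.43, 6.599 and 6.65 in DMSO and at 3.87, 6.15 and 6.40 in Gilteritinib. Both genes overlapped between the groups, with log2 differences of 0.03 (standard error 0.233) and 0.00092 (0.329) and adjusted p-values of 1 from limma. PHLDA1 (ENSG00000139289, chromosome 12, 76025447 to 76033932, minus strand) encodes a pleckstrin homology-like protein whose RNA rises with ERK activity. It was 4.80, 11.5 and 11.5 in DMSO and 6.29, 10.4 and 10.7 in Gilteritinib, a log2 difference of 0.03 (standard error 0.477, adjusted p = 1 from limma).

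The spread between libraries limits what these 8 tests could show, since the 95% intervals reach down to between -0.457 (SPRED2) and -1.02 (PHLDA1) on the log2 scale. With replicate numbers as blocks, the interval of DUSP6 was -0.134 to 0.313, that of ETV5 -0.278 to 0.280, that of PHLDA1 -0.517 to 0.576, and that of DUSP4, which reached lowest of the 8, -0.585 to 0.148. When replicate 1 was left out of each condition, 7 of the 8 lay below 0 with a median of -0.0404, and none passed at an adjusted p under 0.05, while 0.619% of all genes did. DUSP4 and PHLDA1 had an unadjusted p under 0.05 there, both lower, as did 11.7% of all genes in either direction. PHLDA1 was then lower in Gilteritinib by a log2 of -0.12 (standard error 0.0377, adjusted p = 0.295 from limma).

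**Figure D2:**
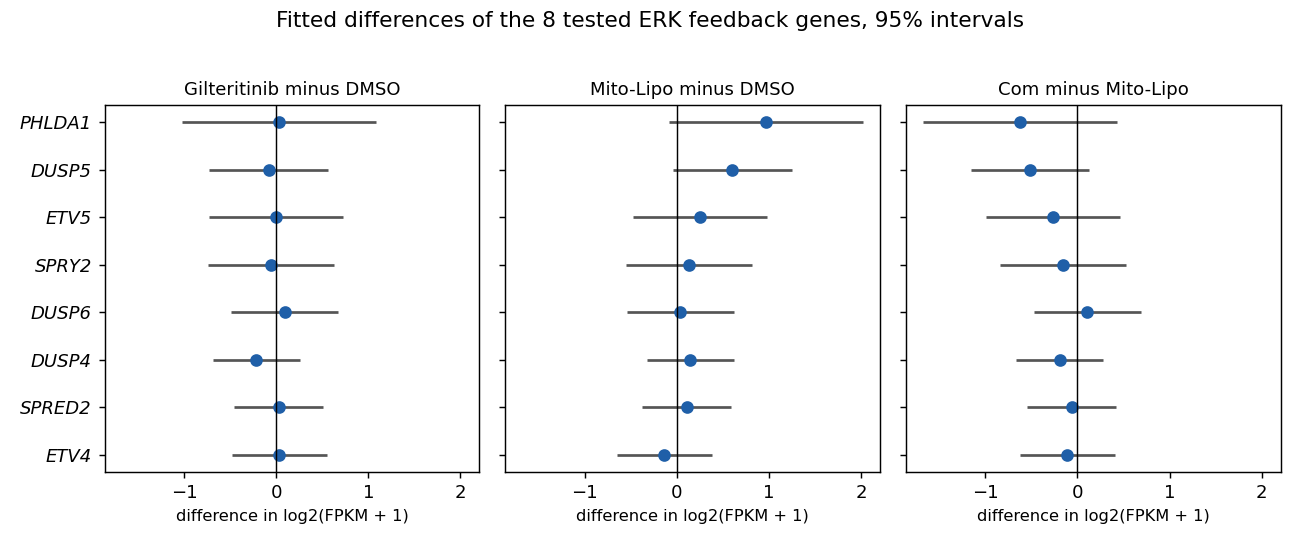
Fitted differences in log2(FPKM + 1) (horizontal axes) of the 8 tested genes for 3 comparisons, over all 12 libraries, with points for the estimate and bars for the 95% interval from limma. All 24 intervals of this fit, which has no block for replicate number, include 0. PHLDA1 and DUSP5 lie farthest from it in Mito-Lipo minus DMSO (0.97 and 0.60) and in Com minus Mito-Lipo (-0.63 and -0.52). With replicate numbers as blocks, the intervals of PHLDA1 and DUSP5 exclude 0 in both of these comparisons. In that fit 15.9% and 12.2% of all genes tested had an unadjusted p under 0.05. No member passed at an adjusted p under 0.05.

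Of the 3 treatments, Mito-Lipo lay farthest from DMSO for PHLDA1, DUSP5 and ETV5, in replicates 2 and 3. In the fit of these replicates alone, a selection made after the values were seen, PHLDA1, DUSP5 and ETV5 rose. SPRY2 and SPRY4 had higher values there too, while DUSP6, DUSP4, SPRED2 and ETV4 lay between -0.11 and 0.04 on the log2 scale. Over all 12 libraries, none of the 8 tested genes passed at an adjusted p under 0.05 (0% of genes tested) or at an unadjusted p under 0.05 (7.9% of genes). Of the 8, 7 lay above 0, with a median log2 difference of 0.139 against 0.0299 for all genes. Without replicate 1, 3 of the 8 rose at an adjusted p under 0.05, where 6.41% of all genes tested passed in either direction.

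Some cell type markers were highest in the same 2 Mito-Lipo libraries. In replicates 2 and 3, the monocyte receptor gene CSF1R stood at 22.4 and 20.9 in DMSO, 40.6 and 41.1 in Mito-Lipo and 24.6 and 24.8 in Com. ITGAM, an integrin gene of myeloid cells, stood at 1.80 and 1.73, 4.82 and 4.59, and 1.80 and 1.81 in the same order. PECAM1, the 1 marker of the stromal and epithelial list that passed the filter, stood at 14.1 and 14.4, 25.1 and 24.8, and 14.9 and 15.1. The summed FPKM of that list ran from 9.46 to 14.7 in DMSO, 12.2 to 15.8 in Gilteritinib, 10.1 to 25.3 in Mito-Lipo and 14.1 to 15.4 in Com. PECAM1 made up nearly all of this sum. The other markers of the list in the table were low, with COL1A1, COL1A2, EPCAM and KRT18 under 0.1 in every library and KRT8 between 0.174 and 0.364. The summed FPKM of the list thus followed PECAM1. The summed FPKM of the myeloid list ran from 932 to 1069 in DMSO, 933.4 to 1573 in Gilteritinib, 933.3 to 1356 in Mito-Lipo and 954.7 to 1772 in Com. Within the myeloid list, HOXA9, SPI1, CEBPA, KIT and MPO were instead lower in Mito-Lipo than in DMSO at both numbers 2 and 3. KIT stood there at 13.2 and 12.8 in DMSO and at 10.7 and 11.3 in Mito-Lipo. CD33, MEIS1 and FLT3 were higher at both numbers, while LYZ was lower at number 2 and higher at number 3. These markers were named after their values were seen, and their part in the result was not tested.

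PHLDA1 had an FPKM of 6.99, 28.3 and 28.1 in Mito-Lipo replicates 1 to 3, against 4.80, 11.5 and 11.5 in DMSO. Mito-Lipo was higher at each number, by ratios of 1.46, 2.45 and 2.44, and the groups overlapped only through Mito-Lipo replicate 1. The log2 difference was 0.97 with a standard error of 0.477 (adjusted p = 0.667 from limma). With replicates 2 and 3 only it was 1.22 with a standard error of 0.0377 (adjusted p = 0.000157 from limma). PHLDA1 thereby had the largest difference of the 8 genes in both fits.

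DUSP5 stood at 2.42, 6.07 and 6.17 in Mito-Lipo, against 2.14, 3.06 and 2.89 in DMSO. It was higher at each number, by ratios of 1.13, 1.98 and 2.14. Its log2 difference was 0.60 (standard error 0.292, limma adjusted p = 0.662), and 0.84 with replicates 2 and 3 only (standard error 0.0868, adjusted p = 0.00542). Its relatives DUSP6 and DUSP4 had ratios between 0.826 and 1.05 at numbers 2 and 3. DUSP6 was 7.19, 10.3 and 11.5 in Mito-Lipo, with a log2 difference of 0.04 (standard error 0.265, adjusted p = 0.993 from limma). DUSP4 was 2.09, 2.25 and 2.45, so that only replicate 1 lay above its DMSO library, by a ratio of 2.16, and the log2 difference was 0.15 (standard error 0.213, adjusted p = 0.942 from limma).

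SPRY4 was 0.190, 1.24 and 1.43 in Mito-Lipo, against 0.119, 0.496 and 0.374 in DMSO. The ratios were 1.59, 2.49 and 3.83, and those at numbers 2 and 3 were no smaller than the ratios of PHLDA1. Without the filter on low values its log2 difference was 0.50 with a standard error of 0.258 (adjusted p = 0.804 from limma), on a scale where the added 1 exceeds most of its values. SPRY2 was 3.02, 7.29 and 7.24, lower than DMSO at number 1 (ratio 0.870) and higher at numbers 2 and 3 (1.25 and 1.24). Its log2 difference was 0.13 (standard error 0.309, limma adjusted p = 0.967), and 0.27 with replicates 2 and 3 only (standard error 0.0810, adjusted p = 0.117). SPRED2 was 7.27, 10.8 and 10.2, a log2 difference of 0.10 (standard error 0.219, adjusted p = 0.964 from limma), with overlapping groups.

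The ETS factors had differences of opposite sign. ETV5 was 3.48, 8.83 and 8.81 in Mito-Lipo, level with DMSO at number 1 (ratio 1.02) and higher at numbers 2 and 3 (1.34 and 1.33). Its log2 difference was 0.25 (standard error 0.329, limma adjusted p = 0.937), and 0.37 with replicates 2 and 3 only (standard error 0.0548, adjusted p = 0.0174). ETV4 was 2.20, 3.37 and 3.60, lower than DMSO at each number, by ratios of 0.808, 0.956 and 0.883. Its log2 difference of -0.14 had a standard error of 0.233 (adjusted p = 0.952 from limma).

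With replicate numbers as blocks, none of the 8 passed at an adjusted p under 0.05, with adjusted p-values from limma of 0.127 for DUSP5 and 0.144 for PHLDA1. These 2 genes had an unadjusted p under 0.05, as did 15.9% of all genes tested.

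In Com, where gilteritinib was given with mitoxantrone, PHLDA1 had 1.81 times its DMSO level at number 1, and 1.10 and 1.12 times at numbers 2 and 3. In the fit of replicates 2 and 3, PHLDA1, DUSP5 and ETV5 were lower in Com than in Mito-Lipo, and SPRY2 and SPRY4 had lower values too. Over all 12 libraries, Com and Mito-Lipo differed in none of the 8 genes at an adjusted p under 0.05 (0% of genes) or an unadjusted p under 0.05 (5.53%), although 7 of the 8 lay below 0 with a median of -0.174 against -0.0362 for all genes. In replicates 2 and 3 alone, 3 of the 8 fell at an adjusted p under 0.05, against 6.13% of all genes in either direction.

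PHLDA1 was 8.72, 12.7 and 12.9 in Com. It was higher than Mito-Lipo at number 1 (ratio 1.25) and lower at numbers 2 and 3 (0.450 and 0.459). The log2 difference was -0.63 (standard error 0.477, limma adjusted p = 0.966), and -1.08 with replicates 2 and 3 only (standard error 0.0377, adjusted p = 0.000167). DUSP5 was 1.997, 3.70 and 3.17 in Com, lower than Mito-Lipo at each number by ratios of 0.824, 0.610 and 0.514. Its log2 difference was -0.52 (standard error 0.292, limma adjusted p = 0.928), and -0.69 with replicates 2 and 3 only (standard error 0.0868, adjusted p = 0.0109).

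ETV5 was 3.97, 5.95 and 6.20 in Com, a log2 difference from Mito-Lipo of -0.27 (standard error 0.329, limma adjusted p = 0.995) and of -0.47 with replicates 2 and 3 only (standard error 0.0548, adjusted p = 0.00786). SPRY2 was 3.63, 5.58 and 5.54, a log2 difference of -0.15 (standard error 0.309, limma adjusted p = 0.998) and of -0.33 with replicates 2 and 3 only (standard error 0.0810, adjusted p = 0.0710). SPRY4 was 0.298, 0.543 and 0.421, with ratios to Mito-Lipo of 1.57, 0.439 and 0.294. These 3 genes and PHLDA1 had the same order, above Mito-Lipo at number 1 and below it at numbers 2 and 3, while DUSP5 was lower at all numbers.

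Among the remaining members, DUSP6 was 7.93, 10.95 and 12.6 in Com and was the only tested member above 0, by a log2 difference of 0.11 (standard error 0.265, adjusted p = 0.998 from limma). DUSP4 was 1.69, 1.95 and 1.92, lower than Mito-Lipo at each number, by a log2 difference of -0.19 (standard error 0.213, adjusted p = 0.988 from limma). SPRED2 was 7.62, 8.85 and 10.2, a difference of -0.06 (standard error 0.219, limma adjusted p = 0.998), and ETV4 was 1.72, 3.15 and 3.54, a difference of -0.11 (standard error 0.233, adjusted p = 0.998 from limma). With replicate numbers as blocks, DUSP5 and PHLDA1 had an unadjusted p under 0.05, as did 12.2% of genes, and adjusted p-values of 0.233 and 0.364 from limma.

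**Figure D3:**
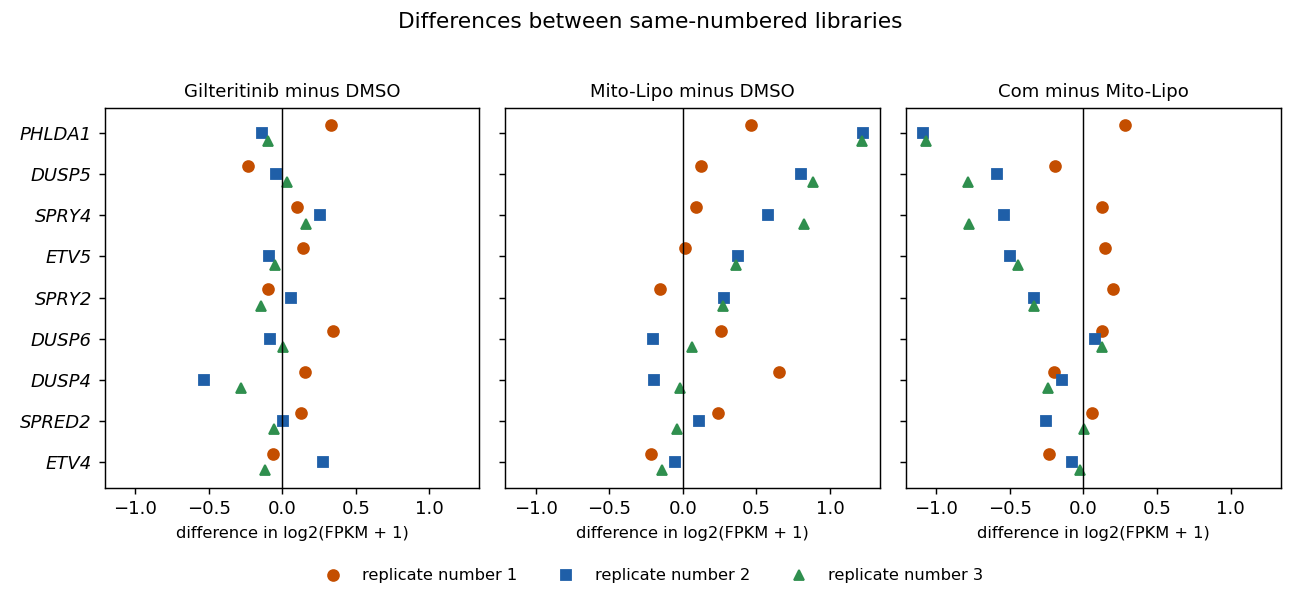
Difference in log2(FPKM + 1) (horizontal axes) between libraries of the same replicate number, for 9 genes and 3 comparisons, with a symbol for each number. For PHLDA1, SPRY4, ETV5 and SPRY2, numbers 2 and 3 lie together above 0 in Mito-Lipo minus DMSO and below 0 in Com minus Mito-Lipo, apart from number 1.

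Between Com and DMSO no member passed at an adjusted p under 0.05 (0.00538% of genes) or an unadjusted p under 0.05 (1.67%), 4 of 8 lay above 0, and the median was 0.0127 against -0.0104 for all genes. PHLDA1 had the largest difference, 0.34 (standard error 0.477, adjusted p = 1 from limma), followed by ETV4 with -0.25 (standard error 0.233, adjusted p = 1 from limma). That of PHLDA1 was 0.743 at number 1, and 0.1322 and 0.1485 at numbers 2 and 3. ETV4 was lower in Com at each number, by ratios of 0.631, 0.893 and 0.867. With replicate numbers as blocks ETV4 was the 1 member with an unadjusted p under 0.05, as were 4.35% of genes (adjusted p = 1 from limma). When replicate 1 was left out of each condition, no member passed at an adjusted p under 0.05, against 0.0538% of genes.

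Com was also set beside Gilteritinib, in which the doses of gilteritinib differ. None of the 8 genes passed at an adjusted p under 0.05 (0%) or an unadjusted p under 0.05 (1.63%), with 6 above 0 and a median of 0.0479 against 0.0188 for all genes. ETV4 was again lower in Com at each number, and with replicate numbers as blocks had an unadjusted p under 0.05, as did 4.39% of genes. PHLDA1 was higher in Com at each number, by ratios of 1.39, 1.23 and 1.21. Without replicate 1, no member passed, against 0.0754% of genes.

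Between the single drugs, 6 of the 8 genes were lower in Gilteritinib than in Mito-Lipo, with a median of -0.22 against -0.0612 for all genes. None passed at an adjusted p under 0.05 (0% of genes). At an unadjusted p under 0.05, 1 of 8 did, DUSP5, while 9.52% of all genes did. With replicate numbers as blocks there were 2, DUSP5 and PHLDA1, against 18% of genes. No member passed at an adjusted p under 0.05 in that fit (0.0269% of genes). In replicates 2 and 3 alone, PHLDA1, DUSP5 and ETV5 were lower in Gilteritinib at an adjusted p under 0.05 from limma, 3 of 8 genes against 6.63% of all genes. With replicate 1 as a batch term, also added after seeing the data, DUSP5 passed at an adjusted p under 0.05, as did 1.36% of genes. Gilteritinib, DMSO and Com all enter these comparisons against the same 3 Mito-Lipo libraries, so the 3 comparisons share them.

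Whether mitoxantrone acted differently with gilteritinib than without it was tested as the interaction, the difference of Com from Gilteritinib less that of Mito-Lipo from DMSO. No member passed at an adjusted p under 0.05 (0% of genes) or an unadjusted p under 0.05 (2.91%), 6 of 8 lay below 0, and the median was -0.117 against -0.011 for all genes. The interaction of PHLDA1 was -0.66 (standard error 0.675, limma adjusted p = 1) and that of DUSP5 -0.44 (standard error 0.412, adjusted p = 1 from limma). When replicate 1 was left out of each condition, these 2 of the 8 passed, against 2.98% of genes, with -0.96 for PHLDA1 (standard error 0.0534, limma adjusted p = 0.00127) and -0.68 for DUSP5 (standard error 0.123, adjusted p = 0.0467 from limma). ETV5 had -0.41 there (standard error 0.0775, adjusted p = 0.0560 from limma).

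The libraries numbered 1 were low for these genes. For all 8 tested genes replicate 1 was the lowest of the 3 libraries in each of the 4 conditions, a pattern that 10.6% of all genes tested had, and SPRY4 had it too. The ratio of replicate 1 to the mean of replicates 2 and 3 had a median of 0.622 over the 8 genes and 4 conditions and ran from 0.248, PHLDA1 in Mito-Lipo, to 0.890, DUSP4 in Mito-Lipo. For PHLDA1 it was 0.417 in DMSO, 0.598 in Gilteritinib and 0.681 in Com. For DUSP6 it was 0.507, 0.688, 0.659 and 0.673 in DMSO, Gilteritinib, Mito-Lipo and Com. What the replicate number stands for is not given in the sources used here, and its part in the results was not tested beyond the fits with a block and without replicate 1.

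Across the 12 libraries all 28 pairs of the tested genes correlated positively in log2(FPKM + 1), with Pearson's r from 0.360 (DUSP4 with ETV4) to 0.976 (SPRY2 with ETV5) and a median of 0.757. These points share the replicate numbers. After the mean of each replicate number was taken out, r ran from -0.527 (DUSP4 with ETV4) to 0.923 (ETV5 with PHLDA1), with a median of 0.316 and 18 of 28 pairs above 0. The pairs among PHLDA1, DUSP5, ETV5 and SPRY2 lay between 0.771 and 0.923. The tested genes whose levels followed PHLDA1 most closely on the same measure were SEC23B (r = 0.995), a coat protein of vesicle transport, and KLF10 (r = 0.986), a transcription factor. DUSP5 was followed by MXD1 (0.984), a partner of MAX, and NABP1 (0.979), a single-stranded DNA binding protein. ETV5 was followed by COPA (0.975) and PDGFA (0.975), and SPRY2 by ITGB1 (0.957). DUSP6 was nearest to RCAN3 (0.941) and ATP6V1A (0.915), DUSP4 to ZER1 (0.947) and CHPF (0.946), SPRED2 to EIF4HP2 (0.954) and SEMA4B (0.95), and ETV4 to C19orf48P (0.914) and SMIM27 (0.910). These are descriptions over 12 libraries. PHLDA1, DUSP5, ETV5 and SPRY2 were each highest in Mito-Lipo replicates 2 and 3, so their r rests largely on those libraries. PHLDA1 stood there at 28.3 and 28.1, against 10.4 to 12.9 in the other libraries of those numbers.

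Relatives of the members and other genes that ERK induces were counted from lists. Of 13 relatives 12 were in the table and 5 were tested. PHLDA2 was not matched. In Gilteritinib minus DMSO, 4 of the 5 lay below 0 and none passed at an unadjusted p under 0.05. In Mito-Lipo minus DMSO all 5 lay above 0 with a median of 0.299, and DUSP1 had an unadjusted p under 0.05, 1 of 5 against 7.9% of all genes. PHLDA3, among the 5, is also in the list of p53 targets counted further on. It was higher in Mito-Lipo than in DMSO only in replicate 1 (14.5 against 7.01). In replicates 2 and 3 it stood at 5.08 and 4.15 against 5.12 and 4.32. Without replicate 1, DUSP7 and DUSP10 rose in Mito-Lipo, and DUSP2, DUSP7 and DUSP10 fell in Com against Mito-Lipo, at an adjusted p under 0.05. These were 2 and 3 of the 5 relatives, against 6.41% and 6.13% of all genes, and 4 of the 5 then lay above 0 in Mito-Lipo minus DMSO. DUSP10, named after its values were seen, stood at 9.45 and 9.15 in DMSO, 12.4 and 13.5 in Mito-Lipo and 9.91 and 9.53 in Com replicates 2 and 3.

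DUSP2, a nuclear phosphatase gene of blood cells, stood at 6.27, 8.30 and 7.33 in DMSO, 6.07, 7.37 and 7.65 in Gilteritinib, 7.68, 9.93 and 9.79 in Mito-Lipo, and 5.52, 6.73 and 6.87 in Com. Com lay below Mito-Lipo in every library, by a log2 difference of -0.46 (standard error 0.135, adjusted p = 0.888 from limma). DUSP1 stood at 2.13, 2.88 and 3.41 in Mito-Lipo and 2.12, 1.62 and 2.01 in Com, a difference of -0.38 (standard error 0.172, adjusted p = 0.891 from limma). DUSP7, at 24.1 to 50.7 the most abundant DUSP gene listed, was 27.95, 48.6 and 50.7 in Mito-Lipo and 24.6, 37.8 and 37.2 in Com, a difference of -0.32 (standard error 0.285, adjusted p = 0.978), and of -0.40 with replicates 2 and 3 only (standard error 0.0376, adjusted p = 0.00420 from limma).

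Of 15 other ERK-induced genes 9 were tested. In Gilteritinib minus DMSO 6 lay below 0 with a median of -0.114, and none had an unadjusted p under 0.05. In Mito-Lipo minus DMSO all 9 lay above 0 with a median of 0.394. In Com minus Mito-Lipo all 9 lay below 0 with a median of -0.535. In each of these, FOS alone had an unadjusted p under 0.05, 1 of 9 against 7.9% and 5.53% of all genes. In replicates 2 and 3 alone, 6 of the 9 rose in Mito-Lipo and 7 fell in Com against Mito-Lipo at an adjusted p under 0.05, against 6.41% and 6.13% of all genes, and 8 of the 9 lay on the same side of 0 as before in each comparison. Between Gilteritinib and DMSO, 4 of the 9 were lower and 1 higher in that fit at an unadjusted p under 0.05, against 11.7% of all genes. The median there was -0.137 against -0.00466 for all genes. None of the 9 passed there at an adjusted p under 0.05 (0.619% of genes). FOS, an AP-1 subunit, was 20.8, 32.2 and 33.3 in DMSO, 21.2, 32.0 and 33.4 in Gilteritinib, 31.98, 45.4 and 48.1 in Mito-Lipo, and 21.6, 29.5 and 29.5 in Com. Mito-Lipo was the highest condition of FOS at every number. Its difference of Com from Mito-Lipo was -0.61 (standard error 0.231, limma adjusted p = 0.891), and with replicate numbers as blocks FOS passed the threshold (standard error 0.0526, adjusted p = 0.0201), as did 0.0108% of genes.

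CXCL8, a cytokine gene, was 8.43, 7.46 and 7.92 in DMSO and 7.91, 6.01 and 5.97 in Gilteritinib, lower at each number, by a log2 difference of -0.24 (standard error 0.197, adjusted p = 1 from limma). MAFF, a small MAF factor, was 0.456, 1.52 and 1.63 in DMSO and 0.494, 0.910 and 0.901 in Gilteritinib, a difference of -0.28 (standard error 0.268, limma adjusted p = 1) and of -0.44 with replicates 2 and 3 only (standard error 0.106, adjusted p = 0.191). EGR3, named after its values were seen, was 0.203, 3.10 and 3.06 in DMSO, 0.0804, 2.47 and 2.61 in Gilteritinib, 0.258, 18.4 and 16.6 in Mito-Lipo, and 0.0882, 2.73 and 3.15 in Com. Its replicate 1 libraries were low in every condition, and its Mito-Lipo level in replicates 2 and 3 stood above every other library.

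**Figure D4:**
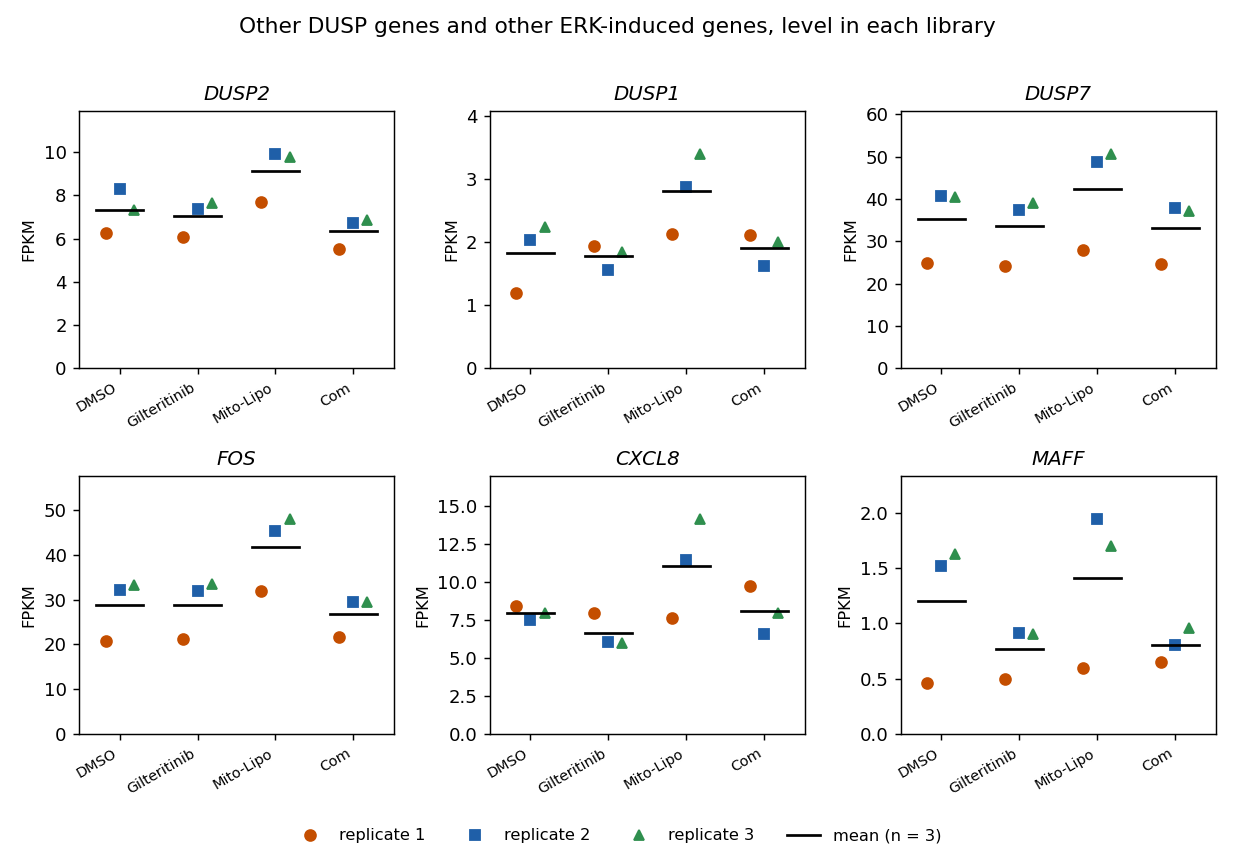
FPKM of 3 further DUSP genes and 3 other ERK-induced genes in each library (vertical axes, linear from 0), by condition, with a symbol for each replicate number and a line for the mean of 3. Mito-Lipo has the highest mean for all 6, and MAFF is lower in Gilteritinib replicates 2 and 3 (0.910 and 0.901) than in the same DMSO replicates (1.52 and 1.63).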

How the data were processed

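RNA of MV4-11 cells was sequenced in 12 libraries, 3 per condition. The authors deposited FPKM per gene in 1 table. The submitters' processing notes name Bowtie 0.12.9, Cufflinks 2.1.1, HTSeq and DESeq2 with the mouse build mm10, although all gene identifiers are human, so the build was not settled, and positions were looked up in GENCODE release 29 (GRCh38). FPKM values were used as deposited, as log2(FPKM + 1), a scale that understates changes of low genes. The 18574 genes that reached an FPKM of 1 in 3 libraries or more were tested with limma 3.58.1 in R 4.3.3, with 1 mean per condition over all 12 libraries, a mean-variance trend and two-sided Benjamini-Hochberg adjustment within each comparison. The step was tested on simulated data.

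The members and the gene lists were chosen with earlier results of these data known. The genes named are all members, any gene of a list with an adjusted p under 0.05, and the 2 genes of each list with the smallest unadjusted p in Gilteritinib minus DMSO and in Com minus Mito-Lipo. For each member the 2 genes with the highest r to it after removal of replicate-number means are also named. Some genes that these rules select are not reported here. EGR3 was chosen after its values were seen.

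All 18 correlations of same-numbered libraries, in deviations from the condition means, lay between 0.165 and 0.657. A shift of replicate 1 alone would also make them positive, and differently numbered libraries were not correlated. They therefore do not show that same-numbered libraries were paired. The tests do not use the replicate number unless the block for it is named. That block is an alternative. Replicates differed by more than sampling noise (chi-square per gene of 1.89 to 4.27 over the low genes), and each library was counted once. Such spread cannot show whether the libraries came from separate cultures. Library totals were recovered with GENCODE exon lengths, at which 75.5% to 76.5% of low values were whole fragments within 0.12, and the fragments so recovered summed to 1.41 times the total, so depth is approximate. The strand setting of the counting is not given in the sources used here. Alternatives were a pseudocount of 0.1, no filter, a minimum mean FPKM of 5, median-ratio and quantile scaling, no trend, the block, only the 6 libraries compared, and each library left out. Replicates 2 and 3 only, and replicate 1 as a batch term, were added after seeing the data.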

Additional observations from a re-analysis of the deposited data

How the results depend on the processing

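No member passed at an adjusted p under 0.05 in any comparison over all 12 libraries. The count stayed at 0 in each comparison with the other scalings, filters and pseudocount, with only the 6 libraries compared, with each library left out (0 to 0), and in the paired fit with replicate numbers as a replicate block (0 members), which changed no member's call. A minimum mean FPKM of 5 left DUSP4, DUSP5 and ETV4 with no value. With the settings added after seeing the data it changed. Replicates 2 and 3 only gave 3 members in Mito-Lipo minus DMSO (6.41% of all genes) and 3 in Com minus Mito-Lipo (6.13%). That setting gave 3 in Gilteritinib minus Mito-Lipo (6.63%) and 2 in the interaction (2.98%). Replicate 1 as a batch term gave 1, DUSP5, in Gilteritinib minus Mito-Lipo (1.36% of genes). The cause was not tested.

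Signs were not stable for members near 0. With replicates 2 and 3 only, the sign turned in Gilteritinib minus DMSO for DUSP6 (-0.0379), SPRED2 (-0.0252), ETV5 (-0.0677) and PHLDA1 (-0.12), and in Mito-Lipo minus DMSO for DUSP4 (-0.107) and DUSP6 (-0.0712). Leaving out 1 library turned the sign of 7 members in Gilteritinib minus DMSO, with log2 differences of -0.195 to 0.108 (DUSP5), -0.2 to 0.266 (DUSP6), -0.265 to 0.161 (SPRY2), -0.199 to 0.2 (SPRED2), -0.111 to 0.2 (ETV4), -0.261 to 0.194 (ETV5) and -0.34 to 0.25 (PHLDA1). In Mito-Lipo minus DMSO they ran from -0.145 to 0.316 (DUSP4), -0.251 to 0.219 (DUSP6), -0.073 to 0.478 (SPRY2), -0.12 to 0.261 (SPRED2), -0.259 to 0.0257 (ETV4) and -0.0121 to 0.627 (ETV5). In Com minus Mito-Lipo they ran from -0.0709 to 0.28 (DUSP6), -0.501 to 0.0206 (SPRY2), -0.22 to 0.0344 (SPRED2) and -0.273 to 0.115 (ETV4). With each library left out, PHLDA1 and DUSP5 kept their sign but not their size. In Mito-Lipo minus DMSO they ran from 0.598 without DMSO replicate 1 to 1.59 without Mito-Lipo replicate 1 (PHLDA1) and from 0.421 without Mito-Lipo replicate 3 to 0.955 without Mito-Lipo replicate 1 (DUSP5). In Com minus Mito-Lipo they ran from -1.25 without Mito-Lipo replicate 1 to -0.313 without Mito-Lipo replicate 2 (PHLDA1) and from -0.873 without Mito-Lipo replicate 1 to -0.333 without Com replicate 1 (DUSP5).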

Other observations

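Lists around the feedback genes were counted in the same way. Of the 23 genes of the cascade from FLT3 to ERK, 21 were tested, none with an unadjusted p under 0.05 in Gilteritinib minus DMSO or Mito-Lipo minus DMSO. In Com minus Mito-Lipo 1 of the 21 had one, near the share of 5.53% of all genes. It was KSR1, a scaffold of RAF and MEK, at an FPKM of 4.86, 7.02 and 6.22 in Mito-Lipo and 2.77, 3.86 and 4.22 in Com (log2 difference -0.61, standard error 0.265, adjusted p = 0.891 from limma). SHC1 and MAP2K2 had the smallest p in Gilteritinib minus DMSO, with log2 differences of 0.10 and -0.12. Of 10 RAS brakes and ETS repressors 9 were tested and none had an unadjusted p under 0.05 in these 3 comparisons. NF1 differed by -0.14 and ERF by -0.09 between Gilteritinib and DMSO, and PEBP1 by 0.11 and CIC by -0.13 between Com and Mito-Lipo.

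All 9 STAT5 targets were tested. Between Gilteritinib and DMSO 6 lay below 0 with a median of -0.116, PIM3 by -0.22 and SOCS1 by -0.24, with standard errors of 0.112 and 0.160 (limma, adjusted p = 1 for each). The list's direction turned with replicates 2 and 3 only, where 5 of 9 lay above 0 with a median of 0.00104. Between Mito-Lipo and DMSO 7 of the 9 lay above 0 with a median of 0.493, and none had an unadjusted p under 0.05 (7.9% of genes). Between Com and Mito-Lipo all 9 lay below 0 with a median of -0.478, SOCS1 among them by -0.38 (standard error 0.160, limma adjusted p = 0.891) and SOCS3 by -0.55 (standard error 0.280, limma adjusted p = 0.907). With replicates 2 and 3 only, 5 of the 9 rose in Mito-Lipo minus DMSO at an adjusted p under 0.05, against 6.41% of all genes. In that fit 5 of the 9 fell in Com minus Mito-Lipo, against 6.13%. PIM2 stood at 20.6, 37.2 and 37.5 in Mito-Lipo and at 13.0, 25.4 and 25.9 in Gilteritinib, and with replicate numbers as blocks this difference passed the threshold (limma, adjusted p = 0.0191), as it did for 0.0269% of genes.

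Of 19 p53 targets 17 were tested. All 17 lay above 0 in both Mito-Lipo minus DMSO (median 0.403) and Com minus DMSO (median 0.435), with 4 at an unadjusted p under 0.05 in each, against 7.9% and 1.67% of all genes. With replicates 2 and 3 only, 15 and 16 of the 17 lay above 0, and the medians were 0.137 and 0.232. Over all 12 libraries 10 of 17 lay above 0 in Com minus Mito-Lipo. BTG2 stood at 9.02, 13.1 and 13.5 in DMSO, 25.2, 42.9 and 43.2 in Mito-Lipo and 23.8, 16.0 and 16.3 in Com, with a log2 difference of Com from Mito-Lipo of -0.93 (standard error 0.230, adjusted p = 0.821 from limma). PLK3 differed by -0.33 there and PLK2 by 0.22 between Gilteritinib and DMSO. No difference between the lists was tested.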
